A study of Mus musculus with 45 samples.

Results

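The transcripts of 40 genes that run the mouse cell cycle and copy its DNA were followed through the first 3 days of embryoid body (EB) differentiation, with and without the Nodal signal transducers Smad2 and Smad3. The genes were taken by name from a list covering origin licensing and the replicative helicase (10 genes), nucleotide supply and the replication fork (4), G1 cyclins and kinases (8), kinase inhibitors (2), transcription factors (3), and G2 and mitosis (13). They are 40 of the 19057 gene symbols on the array. Of the 40, 38 had a probe (Ccnb1 and Mki67 had none) and 33 passed the filter on detection. Gmnn, Cdk6, Mycn, Ccnb2 and Bub1 were not detected on any array and were not tested. Each gene is given by its brightest probe.

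Expression was profiled on 45 Illumina MouseWG-6 v2 arrays of 129/Sv//Ev cells at 3 stages: embryonic stem cells (ESCs) kept in serum with LIF, and EBs grown from hanging drops of 100 ESCs without LIF and collected at day 2 (d2) or day 3 (d3). At each stage there were Smad2/3 DKO cells (a Smad2 KO clone with the same Smad3 deletion), Smad2 KO cells, Smad3 KO cells lacking the promoter and exon 1 of Smad3, and WT cells, with 4 arrays per group apart from 3 in each ESC knockout group. WT replicates 1 to 4 were the lines CCE, CCB, CCH and CCF at every stage. Every Smad3 KO clone derives from CCE, and the Smad2/3 DKO clones derive from a single Smad2 KO clone (KT15). The p-values thus measure the spread between clones and lines, and the Smad2/3 DKO arrays are subclones of the same parent. By the labels Smad2 KO clones are KT lines and WT lines are not. Line origin and genotype therefore cannot be told apart where Smad2/3 DKO or Smad2 KO cells are set against WT. Smad2/3 DKO arrays came from 5000 EBs (2500 for 1 d2 array), Smad2 KO arrays from 2500 at d2 and 5000 at d3, and Smad3 KO and WT arrays from 1250, so EB number and genotype cannot be told apart where Smad2/3 DKO or Smad2 KO EBs are set against WT. The number was the same in Smad3 KO and WT EBs, and in d3 Smad2/3 DKO and d3 Smad2 KO EBs.

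Cells commit to division in G1, when D-type cyclins (Ccnd1, Ccnd2, Ccnd3) bind Cdk4 or Cdk6 and release E2F transcription factors from the retinoblastoma protein. E2F then drives E-type cyclins and the genes of DNA replication, among them the Mcm2 to Mcm7 helicase, which Cdc6 and Cdt1 load at origins and Gmnn restrains. Cyclin A, cyclin B and Cdk1 carry the cell through G2 into mitosis, with the Aurora and Polo kinases acting on the spindle. Mouse ESCs are known for a short G1 and for high cyclin E activity with little cyclin D, and G1 lengthens as they differentiate.

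Arrays had a median signal of 111 to 243 and detected 11338 to 14256 of their 45281 probes, and the precision is limited by the number of arrays and, for members near background, by their signal. In all, 4 libraries went against their labels in Smad3 level or stage (called the doubted libraries) and are named wherever a result rests on them. The Smad2 probe could not check the Smad2 label, since its group means were 8.78 to 9.51 in Smad2 KO and Smad2/3 DKO cells and 8.80 to 9.12 in WT cells. Smad3 was detected in ESC Smad3 KO replicate 4 (log2 signal 9.76) and in d2 Smad2/3 DKO replicate 4 (9.46), while the other libraries without Smad3 lay at 4.83 to 5.62 without detection. Smad3 was not detected in d2 Smad2 KO replicate 4 (5.19), against 7.67 to 9.83 in WT libraries. By their overall expression, the Smad2 KO replicates numbered 4 at both d2 and d3 sided with ESCs, and ESC Smad3 KO replicate 4 sided with EBs. Naive ESC markers (Zfp42, Klf4, Esrrb, Tbx3 and Nanog) had a mean log2 signal of 11.45 to 11.81 in WT ESCs, with all 5 detected, so the labelled cell type was borne out there. Of 5 fibroblast markers only 1, Thy1, was detected in WT ESCs (7.82 to 9.21). The mean over all 5 was 5.83 to 6.18.

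Most of the 33 genes varied little over the 12 groups. The difference between the highest and the lowest group mean had a median of 0.63 on the log2 scale, against 0.96 over all 9638 genes tested. The SD within groups was lower too, with a median of 0.26 against 0.35 over all genes. The difference between highest and lowest group mean stayed under 1 for 21 of 33 members (63.6%), against 52.3% of all genes. This difference passed 2 for 1 member (3.03%), against 15.9%. The flattest were Cdk4, the partner of the D cyclins (0.26), the helicase subunits Mcm4 (0.27) and Mcm5 (0.36), and Tyms, which makes thymidylate (0.32). The widest was Ccnd2 (3.86), followed by Ccnd3 (2.00), the transcription factor Myc (1.76) and Ccnd1 (1.39). The 3 D-type cyclins thus stood among the 4 widest members. On all 45 arrays 28 of the 33 were detected. Detection failed on some arrays for Myc (41 arrays), Ccnd2 (40), the sliding clamp Pcna (39), the mitotic kinase Plk1 (10) and cyclin A2 (Ccna2, 5). Values of Plk1 and Ccna2 therefore lie near background.

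**Figure D1:**
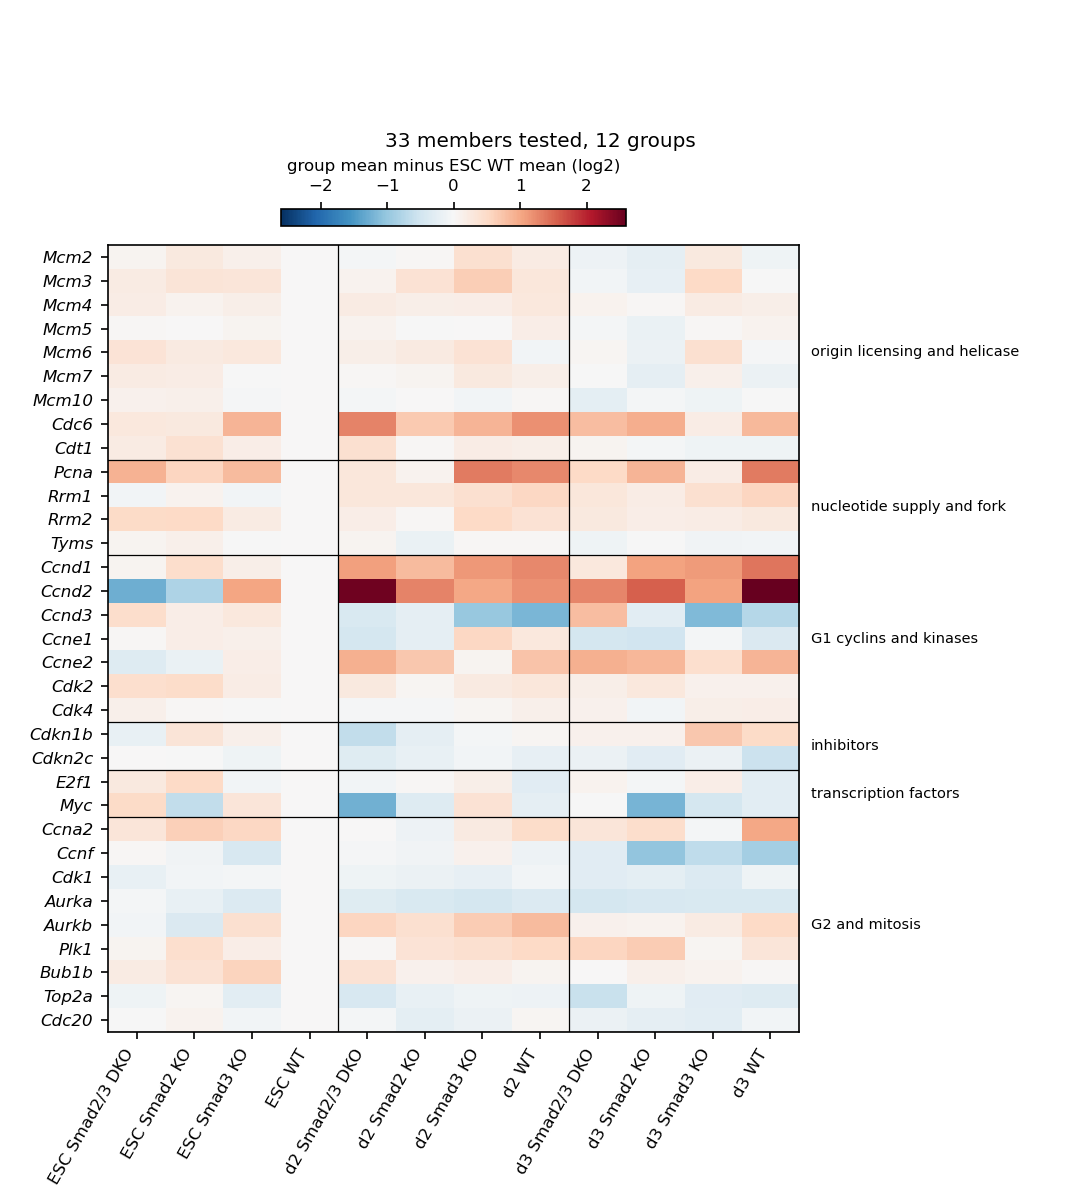
Group means of the 33 members tested, as log2 difference from ESC WT, with genes in rows by role and the 12 groups in columns. The deepest colours stand in the rows of Ccnd2, Ccnd1, Ccnd3, Myc, Cdc6 and Pcna, and the Mcm2 to Mcm7 rows are paler.

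The first question was what happens to these genes as WT ESCs form EBs. A gene is called changed where the Benjamini-Hochberg adjusted p of limma over all probes was under 0.05. At d2, 6 of 33 members passed this test against WT ESCs (28.4% of all genes did), 5 higher and 1 lower, where 14.5% of all genes were higher and 14% lower. The genes that rose were Ccnd1, Cdc6, Pcna, Rrm1 and Aurkb, and the one that fell was Ccnd3. At d3, 11 of 33 passed (35.1% of all genes), 7 higher and 4 lower (18.7% and 16.4% of all genes). Ccnd1, Ccnd2, Ccne2, Cdc6, Pcna, Rrm1 and Ccna2 rose, and Ccnd3, Ccnf, Aurka and Cdkn2c fell. Ccna2 passed the detection filter through the d3 WT arrays alone (3 of the 5 arrays that detected it), so its count as higher was favoured by the filter. Counting any probe of a gene, 7 members passed at d2 and 14 at d3. Of the 33 members 16 had several tested probes. A share over all genes counted this way was not computed, so these counts have no background. The members' median log2 change was 0.15 at d2 and -0.01 at d3, against 0.02 over all genes in both. Both comparisons share the 4 ESC arrays. Of all called genes 50.9% were higher at d2 and 53.2% at d3, or 62.2% and 72.4% with arrays scaled to a common median. With that scaling the median log2 change of all genes at d3 was 0.21. Between d3 WT and d2 WT no member passed (5.93% of all genes did, and 3 members had an unadjusted p under 0.05). Of all genes 14.6% had such a p together with a fold over 1.5, a stricter rule than for the members.

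The D-type cyclins moved apart. Ccnd1 read 12.94, 12.96, 12.71 and 13.02 in d2 WT EBs and 13.18, 12.92, 12.96 and 13.09 in d3 WT EBs, against 12.27, 12.14, 11.44 and 10.76 in WT ESCs. Every EB array was above every ESC array, and the ESC lines were the more scattered. The log2 change was 1.26 ± 0.27 (SE, adjusted p = 0.00412) at d2 and 1.39 ± 0.27 (adjusted p = 0.0016) at d3, and all 3 Ccnd1 probes passed at both stages. Ccnd2 read 10.90, 10.75, 10.65 and 11.35 in d3 WT EBs and 9.81, 9.63, 9.22 and 9.44 in d2 WT EBs, against 9.93, 9.44, 6.00 and 7.93 in WT ESCs, where CCH at 6.00 was not detected. All d3 arrays lay above all d2 and all ESC arrays. The d3 change was 2.58 ± 0.63 (6.00-fold, adjusted p = 0.00666), or 1.81 (adjusted p = 0.00324) without ESC WT replicate 3, while d2 did not pass (1.20 ± 0.63, adjusted p = 0.181).

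Ccnd3 took the opposite course. It read 10.77, 10.93, 11.12 and 11.16 in d2 WT EBs and 11.87, 10.84, 11.82 and 11.28 in d3 WT EBs, against 12.81, 12.03, 11.93 and 11.97 in WT ESCs. No EB array reached the lowest ESC array. The log2 change was -1.19 ± 0.25 at d2 (adjusted p = 0.00392) and -0.73 ± 0.25 at d3 (adjusted p = 0.0402), and both Ccnd3 probes passed at both stages. The d3 call was lost without ESC WT replicate 1 (-0.53, adjusted p = 0.111) or 2 (adjusted p = 0.0519), or without d3 WT replicate 2 (-0.53, adjusted p = 0.115) or 4 (adjusted p = 0.0942).

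**Figure D2:**
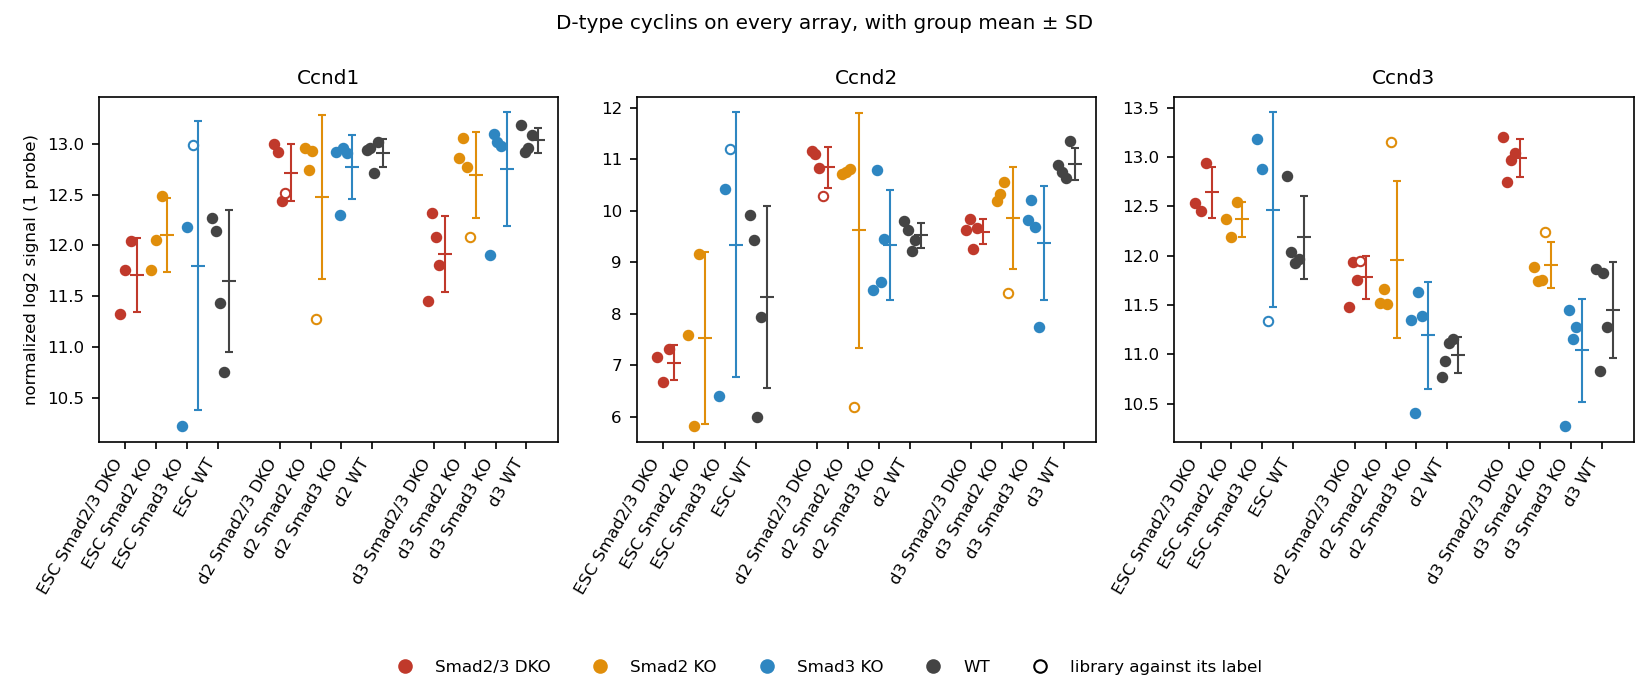
Normalized log2 signal of Ccnd1, Ccnd2 and Ccnd3 on each of the 45 arrays by stage and genotype, with bars at the group mean ± SD and open circles for the 4 libraries that went against their labels. At d3 the 4 Smad2/3 DKO arrays of Ccnd3 lie between 12.75 and 13.21, above all other d3 arrays, and those of Ccnd1 lie between 11.46 and 12.32.

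Among the other G1 cyclins and kinases tested, Ccne2 alone passed, at d3. Ccne2, one of the E-type cyclins that activate Cdk2, read 9.41, 8.40, 8.75 and 9.17 in d3 WT EBs, against 8.20, 8.53, 7.96 and 7.48 in WT ESCs. The lowest d3 array lay below the highest ESC array, and the change was 0.89 ± 0.29 (adjusted p = 0.0285, or 0.0545 with the WT line as a replicate block). That call was also lost without ESC WT replicate 3 or 4 or d3 WT replicate 1 or 4 (log2 0.70 to 0.86, adjusted p = 0.0554 to 0.0847). Ccne1, Cdk2 and Cdk4 did not pass at either stage, although 1 dimmer of 4 Cdk2 probes was lower at d3 and passed (-0.44). Cdkn2c, an inhibitor of Cdk4 and Cdk6, fell at d3, to 7.35 ± 0.14 in d3 WT EBs against 7.90 ± 0.15 in WT ESCs (SD, n = 4 each, log2 change -0.55, adjusted p = 0.0147), a call lost with median scaling (-0.21, adjusted p = 0.463). Cdkn1b, which inhibits Cdk2, and the transcription factors E2f1 and Myc did not pass.

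Among the replication genes tested, Cdc6, Rrm1 and Pcna passed at both stages and the others at neither. Cdc6 read 8.77, 8.99, 9.54 and 9.78 in d2 WT EBs and 8.65, 8.90, 9.22 and 8.92 in d3 WT EBs, against 7.76, 8.88, 7.56 and 8.15 in WT ESCs. ESC CCB, at 8.88, was as high as some EB arrays. The change was 1.18 ± 0.29 at d2 (adjusted p = 0.00912) and 0.83 ± 0.29 at d3 (adjusted p = 0.0407). The d3 call was lost without ESC WT replicate 1, 3 or 4 or d3 WT replicate 2, 3 or 4 (log2 0.66 to 0.85, adjusted p = 0.0659 to 0.11). Rrm1, the large subunit of ribonucleotide reductase, rose at both stages. It read 12.02, 12.01, 11.85 and 11.71 in d2 WT EBs and 11.68, 12.07, 11.89 and 12.08 in d3 WT EBs, against 11.36, 11.58, 11.24 and 11.30 in WT ESCs, with no overlap (0.53 ± 0.15, adjusted p = 0.018, and 0.56 ± 0.15, adjusted p = 0.0103). With median scaling the d2 call was lost (0.47, adjusted p = 0.11).

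Pcna, the clamp that holds polymerase on DNA, was 8.54 ± 0.23 in d2 WT EBs and 8.65 ± 0.18 in d3 WT EBs, against 7.29 ± 1.03 in WT ESCs (SD, n = 4 each). One ESC array, CCE, was not detected at 5.78, while the other ESC arrays read 7.61, 7.74 and 8.04. The change of 1.25 ± 0.38 at d2 (adjusted p = 0.0276) and 1.36 ± 0.38 at d3 (adjusted p = 0.0147) was 0.74 (adjusted p = 0.0108) and 0.85 (adjusted p = 0.00361) without that array. Without d2 WT replicate 1, 2 or 3 the d2 adjusted p was 0.0536 to 0.0635. The 6 helicase subunits Mcm2 to Mcm7, the initiation factor Mcm10, Cdt1, Rrm2 (the small reductase subunit) and Tyms did not pass at either stage. Their 95% intervals at d3 were narrow, for example -0.22 to 0.38 for Mcm5 and -0.40 to 0.25 for Tyms. A dimmer Mcm10 probe fell by 1.62 at d2 and by 1.67 at d3 and passed, while the brightest probe changed by 0.03 and -0.01, so the Mcm10 probes disagreed.

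Of 9 mitotic genes tested 3 passed at d3, a share near the 35.1% of all genes, and 1 at d2. The 3 include Ccna2, whose count as higher was favoured by the detection filter. Ccnf, the F-box cyclin that marks replication and centrosome proteins for degradation, read 9.17, 9.37, 8.99 and 9.18 in d3 WT EBs, against 10.66, 9.77, 9.90 and 9.91 in WT ESCs, with no overlap. It fell by 0.88 ± 0.21 (adjusted p = 0.00521, or 0.0529 with median scaling), and at d2 it differed by -0.14 ± 0.21 (adjusted p = 0.664). Aurka, the centrosomal Aurora kinase, fell by 0.39 ± 0.14 (adjusted p = 0.0492), to 11.97 to 12.23 in d3 WT EBs against 12.34 to 12.70 in WT ESCs. Its call was lost with the replicate block (adjusted p = 0.0845), and without ESC WT replicate 1, 2 or 3 or any single d3 WT replicate (adjusted p = 0.0656 to 0.124).

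Aurkb, the Aurora kinase of the chromosomal passenger complex, rose at d2 instead, reading 10.21, 10.53, 10.82 and 10.75 in d2 WT EBs against 9.63, 10.54, 9.01 and 9.88 in WT ESCs. The change was 0.82 ± 0.27 (adjusted p = 0.038, or 0.0556 with the replicate block). It was also lost without ESC WT replicate 1, 3 or 4 or d2 WT replicate 2, 3 or 4 (log2 0.56 to 0.85, adjusted p = 0.0554 to 0.103). Ccna2 averaged 6.68 ± 0.25 in d3 WT EBs, detected on 3 of 4 arrays, and 5.68 ± 0.49 in WT ESCs, detected on 0 of 4 (adjusted p = 0.0214, 0.0633 without ESC WT replicate 1, 0.053 and 0.0513 without d3 WT replicate 2 or 3). No fold is given for it, since the ESC level lay below background. Cdk1, Plk1, Bub1b, Top2a and Cdc20, the further members of the group tested, did not pass at either stage. All 3 Top2a probes were lower at d3 (-0.48 to -0.34) and 1 of them passed, though not the brightest.

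**Figure D3:**
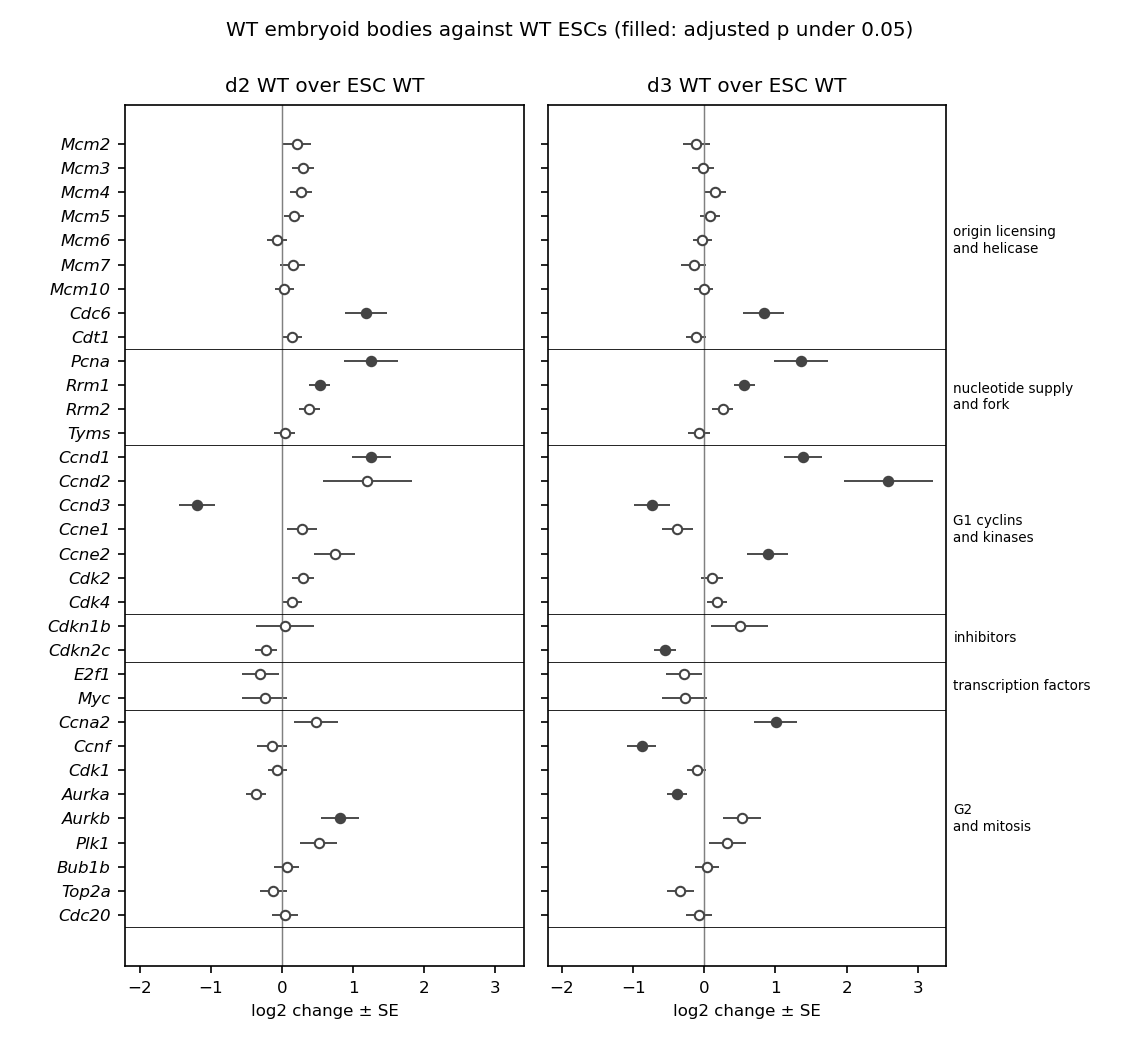
Log2 change ± SE of the 33 members in d2 WT and d3 WT EBs over WT ESCs, by role, with filled points at an adjusted p under 0.05. Ccnd2 at d3 (2.58) lies farthest to the right and Ccnd3 at d2 (-1.19) farthest to the left, while the Mcm points lie close to 0.

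Sequences before the start sites of some members called in WT EBs and covered by RefSeq are shown next. They set the lower-going Ccnd3 and Ccnf beside the higher-going Rrm1 and Pcna. RefSeq (GRCm38.p6) windows of 250 bases upstream matched 32 of the 40 members. Capitals mark motifs on either strand: the E2F motifs TTTCCCGC, TTTCGCGC, TTTGCCGC and TTTGGCGC (which can overlap each other on opposite strands), the cell cycle homology region TTTGAA (reverse TTCAAA), the CCAAT box (reverse ATTGG) and the Smad-binding CAGAC (reverse GTCTG). The windows are, for Ccnd3, chr17:47504801-47505050 and chr17:47593217-47593466 (both plus strand), for Ccnf chr17:24251410-24251659 (minus strand), for Rrm1 chr7:102441445-102441694 (plus strand) and for Pcna chr2:132253181-132253430 (minus strand).
Ccnd3 first start: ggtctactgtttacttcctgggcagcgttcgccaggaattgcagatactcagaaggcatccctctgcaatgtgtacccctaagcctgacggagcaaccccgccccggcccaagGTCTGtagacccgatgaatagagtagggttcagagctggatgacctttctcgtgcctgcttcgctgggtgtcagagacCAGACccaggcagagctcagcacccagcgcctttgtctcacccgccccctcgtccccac
Ccnd3 second start: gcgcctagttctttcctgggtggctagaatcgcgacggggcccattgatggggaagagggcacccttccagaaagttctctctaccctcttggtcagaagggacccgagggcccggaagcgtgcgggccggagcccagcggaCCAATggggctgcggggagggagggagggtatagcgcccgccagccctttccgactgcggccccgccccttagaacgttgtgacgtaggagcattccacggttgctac
Ccnf: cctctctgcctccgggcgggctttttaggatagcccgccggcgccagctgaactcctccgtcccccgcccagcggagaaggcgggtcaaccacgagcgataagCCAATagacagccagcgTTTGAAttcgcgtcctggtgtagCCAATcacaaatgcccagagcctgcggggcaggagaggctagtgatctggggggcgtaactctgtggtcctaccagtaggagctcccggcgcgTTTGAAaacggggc
Rrm1: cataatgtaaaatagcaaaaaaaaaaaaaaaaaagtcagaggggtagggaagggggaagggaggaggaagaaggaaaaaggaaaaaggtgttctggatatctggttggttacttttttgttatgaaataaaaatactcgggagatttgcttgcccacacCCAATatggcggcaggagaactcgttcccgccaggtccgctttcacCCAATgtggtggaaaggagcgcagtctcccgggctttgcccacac
Pcna: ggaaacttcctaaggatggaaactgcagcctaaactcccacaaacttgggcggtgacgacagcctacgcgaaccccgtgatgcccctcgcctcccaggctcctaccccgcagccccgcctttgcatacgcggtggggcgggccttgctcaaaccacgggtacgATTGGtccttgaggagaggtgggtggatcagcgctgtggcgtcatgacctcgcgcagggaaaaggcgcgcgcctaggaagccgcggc
The first Ccnd3 window held CAGAC 137 and 59 bases before the start and the second a CCAAT box at 108. Ccnf held 2 TTTGAA (130 and 14 bases before the start) and 2 CCAAT boxes (147 and 107), the pair of motifs known from late cell cycle genes. Rrm1 held CCAAT at 91 and 45 and Pcna at 87. The window of Cdc6, which also rose in WT EBs and is not shown, held 1 E2F motif and 2 CAGAC. Over the 35 windows of members, an E2F motif was found in 7 (20%), TTTGAA in 8 (22.9%), CCAAT in 24 (68.6%) and CAGAC in 8 (22.9%), against 1.86%, 16%, 33.8% and 42.2% of all 32851 windows. These matches are letters in a window and were not tested against expression.

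The second question was whether loss of Smad2, Smad3 or both changes these genes. In ESCs it was not detectable. No member passed in Smad2/3 DKO, Smad2 KO or Smad3 KO ESCs against WT ESCs, and 0% of all genes did in each. The doubted ESC Smad3 KO replicate 4 is 1 of 3 arrays of its group and enters the spread of all 3 comparisons. Without it no member passed either, where 0.0519%, 0.0311% and 0% of all genes did, the last with 2 Smad3 KO arrays. In the limma test 319, 762 and 602 genes had an unadjusted p under 0.05, and 2, 4 and 2 members were among them, with Rrm2 (0.50 in Smad2/3 DKO and 0.51 in Smad2 KO ESCs) and Cdk2 (0.43 and 0.48).

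At d2 no member passed either, where 2.42% (Smad2/3 DKO), 0.56% (Smad2 KO) and 0.0208% (Smad3 KO) of all genes did. An unadjusted p under 0.05 was found for 4, 2 and 1 members. Such a p together with a fold over 1.5 was found for 10.2%, 8.09% and 5.63% of all genes. That rule is stricter than the one for the members. Myc came nearest, at 7.28, 6.86, 6.28 and 6.91 in d2 Smad2/3 DKO EBs against 8.33, 7.53, 7.63 and 7.90 in d2 WT EBs. The groups did not overlap, and the difference was -1.02 ± 0.26 (adjusted p = 0.0592). With the 4 doubted libraries left out Myc differed by -1.04 ± 0.24 (adjusted p = 0.0275), the only member to pass at d2 then, where 4.63% of all genes did. Ccne1 also did not overlap, at 11.12, 10.55, 11.31 and 10.69 in d2 Smad2/3 DKO EBs against 12.03, 11.63, 11.49 and 11.45 in d2 WT EBs (-0.73 ± 0.20, adjusted p = 0.0673).

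At d3 the Smad2/3 DKO changed 3 of 33 members against WT (17% of all genes), 2 higher and 1 lower (9.49% and 7.5% of all genes). Ccnd3 and Ccnf were higher and Ccnd1 lower. Of all called genes 55.9% were higher, or 37.3% with median scaling, under which the median log2 difference of all genes was -0.22. The 3 knockout comparisons at d3 share the 4 WT arrays. The members' median log2 difference was -0.05, against -0.03 over all genes. Ccnd3 read 13.21, 12.75, 12.97 and 13.04 in d3 Smad2/3 DKO EBs, against 11.87, 10.84, 11.82 and 11.28 in d3 WT EBs. All DKO arrays lay above all WT arrays. The difference was 1.54 ± 0.26 (2.91-fold, adjusted p = 0.00105), and the second probe gave 2.19 and passed too.

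Ccnd1 read 11.46, 12.32, 12.08 and 11.81 in d3 Smad2/3 DKO EBs, against 13.18, 12.92, 12.96 and 13.09 in d3 WT EBs, again without overlap. It was 2.17-fold lower (-1.12 ± 0.27, adjusted p = 0.0109), and 2 of 3 probes passed (log2 -1.12 to -0.72). Ccnd2 read 9.62, 9.84, 9.27 and 9.67 in d3 Smad2/3 DKO EBs and 10.90, 10.75, 10.65 and 11.35 in d3 WT EBs. Its groups did not overlap, yet the brightest probe did not pass (-1.31 ± 0.49, adjusted p = 0.0856), while 2 of its 3 probes did. The spread behind this test includes the other d3 genotypes, and without the doubted d3 Smad2 KO replicate 4 Ccnd2 passed (-1.31 ± 0.39, adjusted p = 0.0269), 1 of 4 members then (23.2% of all genes).

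Ccnf read 9.53, 9.66, 9.56 and 10.33 in d3 Smad2/3 DKO EBs, against 9.17, 9.37, 8.99 and 9.18 in d3 WT EBs. Replicate 4 was the highest by far, although the other DKO arrays also lay above all WT arrays. The difference was 0.59 ± 0.18 (1.51-fold, adjusted p = 0.0346). It was lost without Smad2/3 DKO replicate 4 (0.40, adjusted p = 0.094), without WT replicate 1, 3 or 4 (0.53 to 0.59, adjusted p = 0.0669 to 0.101), and when arrays were scaled to a common median (0.38, adjusted p = 0.478). Without the doubted libraries Ccnd3, Ccnd1 and Ccnf all passed (adjusted p = 0.000673, 0.00417 and 0.0283). The same replicate 4 was lowest of its group in Cdc6 (8.16), Pcna (5.83, not detected), Aurkb (9.38) and Ccna2 (5.07, not detected).

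No replication gene passed. The 9 licensing and helicase members differed by -0.25 to 0.18 in d3 Smad2/3 DKO EBs, with 0 passing and 0 at an unadjusted p under 0.05. Of all genes 17% passed, and 22.3% had such a p together with a fold over 1.5. Pcna differed by -0.84 with 1 undetected DKO array (replicate 4), or by -0.18 (adjusted p = 0.862) without it, and Rrm1 by -0.26. Of 9 G2 and mitosis members, Ccnf alone passed, and Cdk1 lay at 12.00, 11.26, 12.39 and 11.85 in d3 Smad2/3 DKO EBs against 12.28, 11.97, 11.92 and 12.11 in d3 WT EBs (-0.19, 95% interval -0.62 to 0.23). Since EBs hold several cell types, fewer cells of a type and less RNA per cell cannot be told apart.

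**Figure D4:**
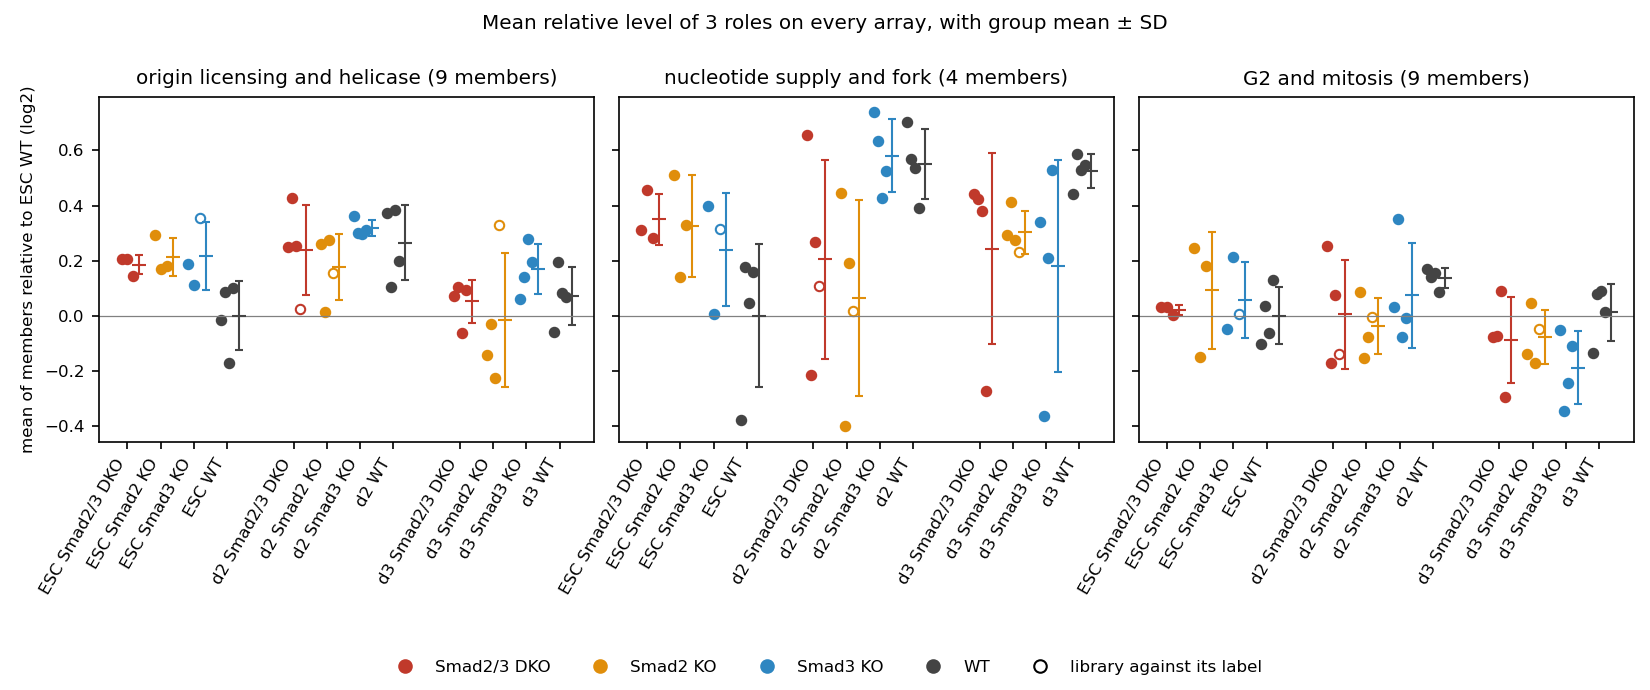
Mean log2 level relative to ESC WT of the members tested in 3 roles, on each array by stage and genotype, with group mean ± SD and open circles for the 4 libraries that went against their labels. Licensing and helicase genes lie between -0.22 and 0.43 and mitotic genes between -0.35 and 0.35 on every array, and the 5 lowest points of the nucleotide supply and fork panel are arrays on which Pcna was not detected.

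In the single knockouts at d3 no member passed, where 3.02% (Smad2 KO) and 1.3% (Smad3 KO) of all genes did, and 2 and 7 members had an unadjusted p under 0.05. Ccnd3 differed from d3 WT by 0.46 ± 0.26 in Smad2 KO EBs and by -0.41 ± 0.26 in Smad3 KO EBs. Ccnd2 read 10.20, 10.33, 10.57 and 8.40 in d3 Smad2 KO EBs and 9.83, 10.22, 9.69 and 7.75 in d3 Smad3 KO EBs, against 10.65 to 11.35 in d3 WT EBs. All single-knockout arrays lay below all WT arrays, and the lowest Smad2 KO array was the doubted replicate 4, with differences of -1.04 ± 0.49 (adjusted p = 0.329) and -1.54 ± 0.49 (adjusted p = 0.108). Without the doubted libraries Ccnd2 passed in Smad3 KO EBs (-1.54 ± 0.39, adjusted p = 0.0353), the only member, where 6.33% of all genes did. The brightest probes of Mcm2, Mcm3, Mcm6 and Mcm7 read 0.29 to 0.53 higher in d3 Smad3 KO EBs but did not pass (adjusted p = 0.101 to 0.247), and other probes differed in the opposite direction, down to -0.82 for Mcm6 and -0.21 for Mcm7.

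Set directly against d3 Smad2 KO EBs, Smad2/3 DKO EBs differed in 2 members (4.81% of all genes), both higher. Ccnd3 lay at 12.99 ± 0.19 in d3 Smad2/3 DKO EBs and 11.91 ± 0.23 in d3 Smad2 KO EBs (SD, n = 4 each, 1.08 ± 0.26, adjusted p = 0.0292), and Ccnf at 9.77 ± 0.38 in d3 Smad2/3 DKO EBs and 9.04 ± 0.20 in d3 Smad2 KO EBs (0.73 ± 0.18, adjusted p = 0.0301). The Ccnd3 call was lost without any 1 of 6 of the 8 arrays (1.01 to 1.09, adjusted p = 0.0519 to 0.103), although it passed with 1.20 (adjusted p = 0.0166) once the doubted array was left out. The Ccnf call was lost without Smad2 KO replicate 1 or 3 or Smad2/3 DKO replicate 4 (0.54 to 0.72, adjusted p = 0.0632 to 0.0696). Ccnd1 passed only without the doubted array (-0.98 ± 0.26, adjusted p = 0.0351).

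**Figure D5:**
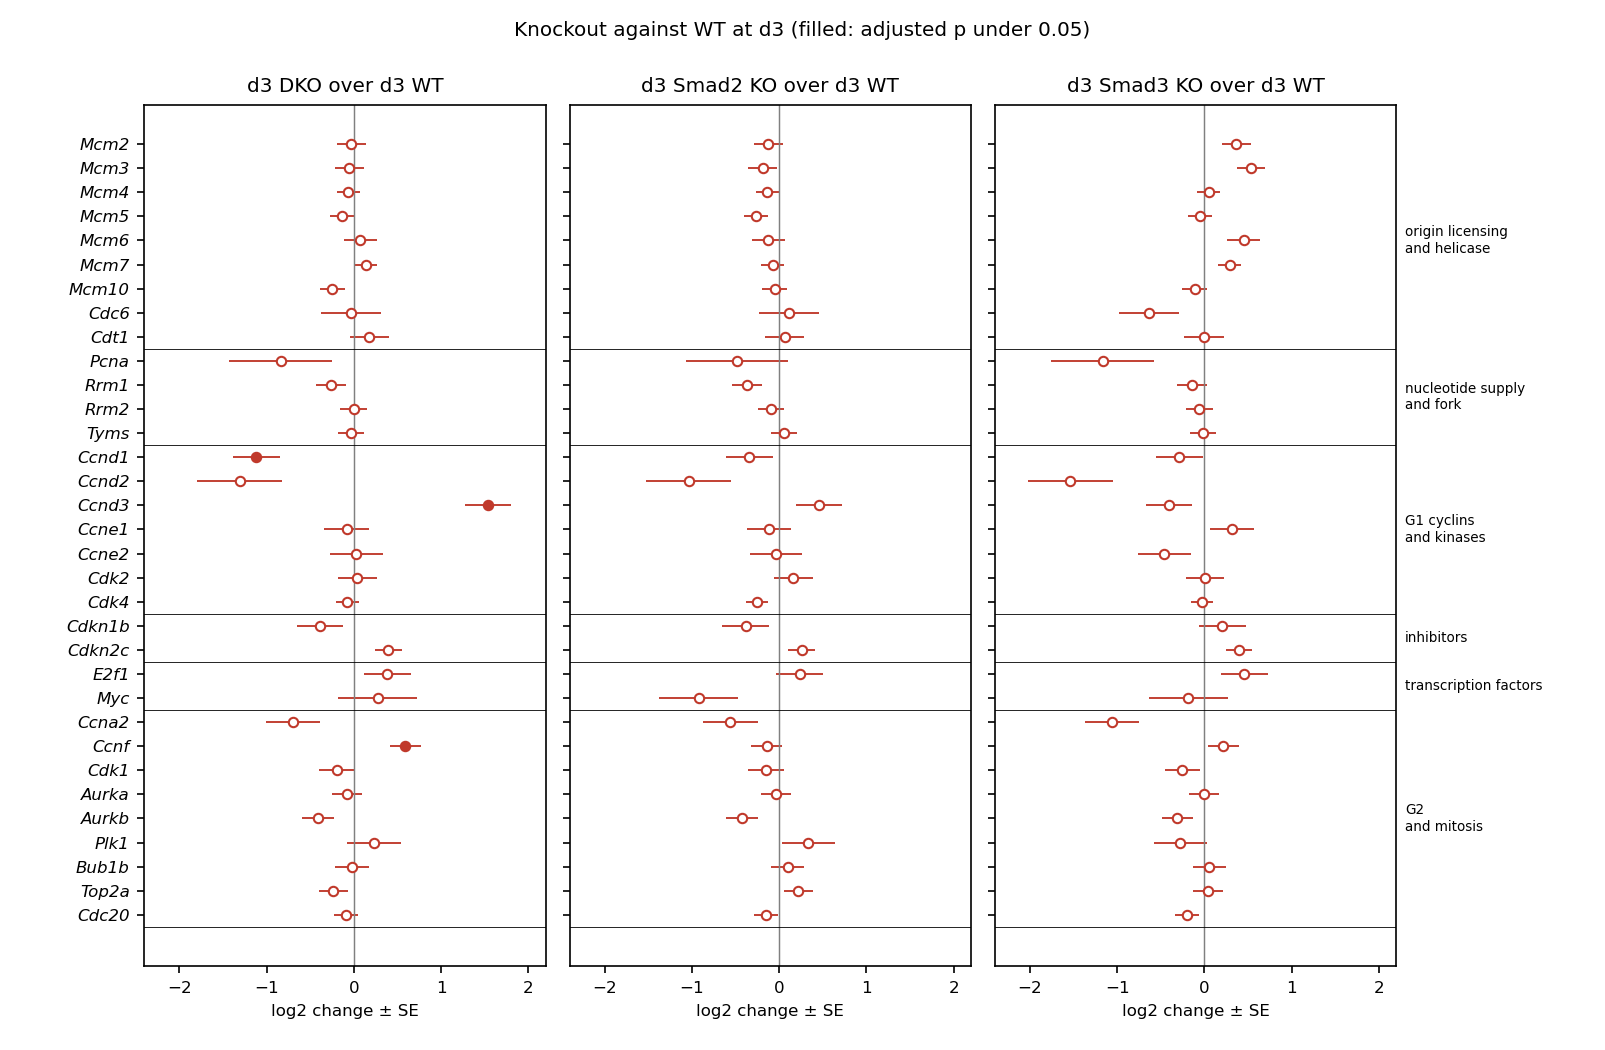
Log2 difference ± SE from d3 WT of the 33 members in d3 Smad2/3 DKO, Smad2 KO and Smad3 KO EBs, with filled points at an adjusted p under 0.05. Filled points are Ccnd3 (1.54), Ccnf (0.59) and Ccnd1 (-1.12) in the Smad2/3 DKO panel, and neither single knockout has one.

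Whether the effect of the double knockout depended on stage was tested on all 45 arrays, so the doubted libraries enter the spread. For the difference between its d3 and its ESC effect no member passed (3.92% of all genes did). Ccnd3 had 1.08 ± 0.48 (adjusted p = 0.267) and Ccnd1 -1.18 ± 0.57 (adjusted p = 0.315), so a d3 effect larger than that in ESCs was not shown for either. No member passed in the other 8 contrasts of this kind, which were chosen after seeing the data, where 1 to 80 genes of 9638 did. In the limma test 4 members had an unadjusted p under 0.05 in the d3 against ESC contrast. Of all genes 14.9% had such a p together with a fold over 1.5, a stricter rule than for the members.

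The course of each knockout from ESC to EB was compared as well, chosen after seeing the data. In Smad2/3 DKO cells Ccnd2 made the widest move, at 11.17, 11.10, 10.83 and 10.29 in d2 EBs and 9.62, 9.84, 9.27 and 9.67 in d3 EBs, against 7.16, 6.67 and 7.33 in ESCs, of which 2 of 3 were detected. It was 3.79 ± 0.24 higher at d2 (13.9-fold, adjusted p = 5.58e-06) and 2.55 ± 0.24 higher at d3 (adjusted p = 5.14e-05). The highest arrays were thus those of d2, and d3 lay 1.25 ± 0.23 below d2 (adjusted p = 0.0304), where WT had its highest arrays at d3. The double-knockout effect on Ccnd2 at d3 minus that at d2 was -2.63 ± 1.24 and did not pass (adjusted p = 0.532). That fit includes the doubted libraries, and this contrast was not tested without them. In d2 Smad2/3 DKO EBs 5 members passed against their ESCs (20% of all genes): Ccnd1 (1.00), Ccnd2 and Ccne2 (1.26) higher, Ccnd3 (-0.86) and Myc (-1.76) lower. Without the doubted d2 replicate 4 all 5 still passed (log2 1.07, 3.98, 1.21, -0.92 and -1.79 in that order). At d3 Ccnd2 and Ccne2 (1.26) passed (26.1% of all genes), and Ccnd1 and Ccnd3 did not.

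Ccnd3 in Smad2/3 DKO cells was lower at d2 than in ESCs, and at d3 its difference from ESCs did not pass (0.35 ± 0.19, adjusted p = 0.209). It lay at 12.99 ± 0.19 in d3 and 11.78 ± 0.22 in d2 Smad2/3 DKO EBs (SD, n = 4 each), and 12.64 ± 0.26 in Smad2/3 DKO ESCs (n = 3). Between d3 and d2 it was 1.21 ± 0.17 higher (adjusted p = 0.0272), 1 of 2 members to pass with Ccnd2 (1.76% of all genes). By the labels the same 4 clones were sampled at d2 and d3, and in all 4 Ccnd3 was higher and Ccnd2 lower at d3. For clone KT15.2D5 the d2 array is the doubted replicate 4, so that pair and the clone block rest on a doubted label. With the clone as a block, chosen after seeing the data, Ccnd3 passed (adjusted p = 0.0335) and Ccnd2 did not (adjusted p = 0.0518). Both calls were lost without some single arrays. For Ccnd3 these were d2 replicate 1 and d3 replicates 1 and 3 (1.11 to 1.22, adjusted p = 0.0726 to 0.0767). For Ccnd2 they were d2 replicates 1 and 3 and d3 replicates 1, 2 and 3 (-1.33 to -1.14, adjusted p = 0.0559 to 0.107). Without the doubted d2 replicate 4 both passed, at 1.27 (adjusted p = 0.00428) and -1.43 (adjusted p = 0.00377). Myc fell to 6.83 ± 0.41 in d2 Smad2/3 DKO EBs (n = 4), against 8.59 ± 0.33 in Smad2/3 DKO ESCs (n = 3), with adjusted p = 0.00607. The Ccnd1 call at d2 was lost without ESC replicate 2 (0.81, adjusted p = 0.0725).

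For the single knockouts the stage comparisons rest on the doubted libraries. With all arrays no member passed in d2 or d3 Smad2 KO EBs against their ESCs (0.208% and 0.156% of all genes) nor in d2 or d3 Smad3 KO EBs (2.54% and 4.85%). Members with an unadjusted p under 0.05 in the limma test numbered 3, 7, 2 and 3. Such a p together with a fold over 1.5 was found for 14.6%, 17.6%, 14.7% and 20.7% of all genes. That rule is stricter than the one for the members. Without the doubted libraries the counts were 6 and 11 members in Smad2 KO EBs (22.8% and 27.7% of all genes) and 2 and 5 in Smad3 KO EBs (18% and 25.4%). The Smad3 KO counts then rest on 2 ESC arrays. In the doubted d2 Smad2 KO replicate 4, Ccnd1 (11.28), Ccnd2 (6.20) and Ccnd3 (13.15) each lay outside the range of the other d2 Smad2 KO arrays, which read 12.74 to 12.96, 10.72 to 10.82 and 11.51 to 11.66.

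Without these libraries the D cyclins of Smad2 KO cells had the WT directions. Ccnd1 rose by 0.78 at d2 and 0.80 at d3, Ccnd2 rose by 3.24 and 2.83, and Ccnd3 changed by -0.81 and -0.57 (adjusted p = 0.00534 to 0.0234 over the 6). Ccne2 rose too (1.26 and 1.08), and E2f1, the activating E2F, fell by 0.59 and 0.89. At d3 the helicase members Mcm2, Mcm3 and Mcm6 (-0.59 to -0.51), the loader Cdt1 (-0.72), Ccne1 (-0.89) and Ccnf (-0.94) fell as well, and at d2 Aurkb rose (0.70). In Smad3 KO EBs Ccnd3 fell by 1.84 at d2 and 1.99 at d3, and Rrm1 rose by 0.70 and 0.69. Ccnd1 rose (1.55) and Myc fell (-1.40) at d3. The fifth member, Ccna2, was not detected on any array of either group, so no change is given for it. Whether these changes differ between genotypes was not tested without the doubted libraries, apart from the d3 against ESC effect of the Smad2/3 DKO, in which no member passed (8.54% of all genes).

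Further genes of the same pathway were read from 3 lists chosen by function. In d3 Smad2/3 DKO EBs against d3 WT EBs, where 9.49% of all genes were higher and 7.5% lower, 0 of 33 further replication genes were higher and 2 lower: Dut, which keeps uracil out of DNA (-0.93 ± 0.19), and the origin recognition subunit Orc3 (-0.73 ± 0.20). Of 23 further G1 genes 2 were higher and 5 lower, led by the inhibitor Cdkn1c (2.52 ± 0.65, adjusted p = 0.0161), the Myc family gene Mycl (-2.45 ± 0.45, adjusted p = 0.00171) and the E2F partner Tfdp2 (-0.94 ± 0.26). Of 29 further mitotic genes 3 were higher, namely the cytokinesis genes Anln (0.65), Prc1 (0.63) and Kif23 (0.52), and 0 lower. At d3 Smad2 KO EBs had Mxd3, a Myc antagonist, higher (1.12) and the phosphatase Cdc25b lower (-0.73), and no gene of the 3 lists passed in ESC or d2 knockouts.

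In WT EBs all 3 lists held called genes against WT ESCs. At d2, where 14.5% of all genes were higher and 14% lower, 6 of 33 replication genes were higher and 1 lower (Dut 1.05, Orc3 0.68 and Uhrf1 0.67 led), 6 of 23 G1 genes higher and 0 lower (Mycl 2.85, E2f7 1.39 and Mxd4 0.88), and 1 of 29 mitotic genes higher and 4 lower (Mybl2 -1.81, Plk4 1.03 and Anln -0.67). At d3, where 18.7% of all genes were higher and 16.4% lower, 4 of 33 replication genes were higher and 1 lower, 6 of 23 G1 genes higher and 3 lower, and 1 of 29 mitotic genes higher and 6 lower. Mycl (3.44 ± 0.26) and the mitotic activator Mybl2 (-2.54 ± 0.15) made the largest moves, ahead of the Myc antagonist Mxd4 (1.76) and the inhibitor Cdkn2a (-1.39). Mybl2 read lower again at d3 than at d2 (-0.73), as did Cdkn2a (-0.89), while Mxd4 was higher (0.89).

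Markers of other cell types moved with the double knockout. In d3 Smad2/3 DKO EBs the trophectoderm markers Cdx2, Plac1 and Rhox6 had a mean log2 signal of 9.62 to 11.46 with all 3 detected, against 6.47 to 7.43 with Plac1 and Rhox6 not detected in d3 WT EBs. Plac1 and Rhox6 were called higher, and Cdx2 was not, averaging 9.36 in d3 Smad2/3 DKO EBs and 9.91 in d3 WT EBs. Naive markers had a mean of 10.0 to 10.78 (5 of 5 detected) in d3 Smad2/3 DKO EBs, against 8.06 to 8.92 (4 of 5) in d3 WT EBs. Of the 5, 4 were called higher, while Nanog read 9.77 to 10.68 in d3 Smad2/3 DKO EBs, below its 11.09 to 11.73 in d3 WT EBs. Primed epiblast markers (Fgf5, Pou3f1 and Dnmt3b) had a mean of 9.90 to 10.01 in d3 Smad2/3 DKO EBs, against 11.62 to 12.42 in d3 WT EBs. Of these only Fgf5 was called lower (5.23 in d3 Smad2/3 DKO EBs and 11.50 in d3 WT EBs), while Pou3f1 averaged 10.79 in d3 Smad2/3 DKO EBs and 10.61 in d3 WT EBs, and Dnmt3b 13.86 in d3 Smad2/3 DKO EBs and 14.01 in d3 WT EBs. The 3 streak markers with a probe had a mean of 5.02 to 5.17 in d3 Smad2/3 DKO EBs, with none detected, against 10.13 to 11.78 in d3 WT EBs with all detected. By array, the ranges of these lists in d3 Smad2/3 DKO and d3 WT EBs did not overlap. Those of the general pluripotency markers Pou5f1 and Sox2 did (11.49 to 12.48 against 11.41 to 12.42). Those of the fibroblast markers did too (5.66 to 5.94 against 5.92 to 6.51). Pou5f1 was called lower (12.87 in d3 Smad2/3 DKO EBs and 13.84 in d3 WT EBs). Sox2 was not called (11.10 and 9.79). The part of these markers in the cyclin values was not tested.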

How the data were processed

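Total RNA of 45 samples was hybridised to Illumina MouseWG-6 v2 arrays. The authors deposited a table of probe signal intensity with detection p-values from GenomeStudio (2009.2), not normalized, and a table of normalized log2 values, which served as an alternative. They had left out 3 ESC arrays as outliers. Here the intensities were background-corrected and quantile-normalized (neqc of limma 3.58.1, R 4.3.3, offset 16), and 16896 of 45281 probes with a detection p-value under 0.01 on at least 3 arrays were tested. Of the array's probes 34885 had 1 gene symbol, 18 several and 10378 none. limma was fitted per stage over 4 genotypes, over the 12 WT arrays for stages, within a genotype for knockout stages and over 45 arrays for stage-dependent effects. P-values were Benjamini-Hochberg adjusted over all tested probes, and each of 9638 genes is given by its brightest probe. Array values are given for members called, at most the 3 of largest change per role and comparison. Those of Ccnd3 at d3 in WT, of Ccnd2, Myc and Ccne1 where not called, and of Cdk1 were chosen after their values were seen. The members and lists were chosen with earlier results of these data known. The tests were tested on simulated data. WT replicate numbers mark cell lines by the labels, so the line was tried as a block. Same-line deviations correlated at -0.263 to 0.46 over 12 pairs (median -0.03). Knockout numbers do not mark clones, so the clone named in the labels was the block for knockout stages (10 pairs per genotype, correlations -0.472 to 0.705). Other alternatives were background correction, scaling, filters, probes, arrays and thresholds.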

Additional observations from a re-analysis of the deposited data

Results flagged for a closer look

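In groups of 4 arrays, 297 sets of member values were examined for a single array far from the other 3 by Dixon's ratio of gap to range, and 24 stood out. Chance flags about 1 in 20 groups, and 4 of the 24 lay in libraries that went against their labels.

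Replicate 4 of the d3 Smad2/3 DKO stood apart in 5 members. It was low in Cdc6 (8.158, the others 9.039 to 9.208), Pcna (5.834, the others 8.315 to 8.566), Ccna2 (5.07, the others 6.246 to 6.356) and Aurkb (9.376, the others 10.01 to 10.07), and high in Ccnf (10.33, the others 9.53 to 9.659). In the same group Mcm6 was high in replicate 1 (12.43, the others 11.9 to 11.95) and Ccne1 in replicate 2 (11.37, the others 10.73 to 10.79).

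Doubted libraries gave Ccnd1 (11.28), Ccnd2 (6.196) and Ccnd3 (13.15) in d2 Smad2 KO replicate 4, and Tyms (12.1, the others 11.55 to 11.64) in d3 Smad2 KO replicate 4. In d2 Smad2/3 DKO EBs Cdt1 was high in replicate 3 (12.43, the others 12.24 to 12.27) and Cdkn1b low in replicate 1 (6.991, the others 7.94 to 8.081).

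In Smad3 KO EBs at d2, replicate 2 was low in Mcm6 (11.91, the others 12.49 to 12.57) and Ccnd1 (12.3, the others 12.91 to 12.96). Replicate 1 was high in Ccne2 (8.821, the others 7.832 to 7.924) and replicate 3 low in Plk1 (5.991, the others 6.556 to 6.638). At d3 Smad3 KO replicate 1 was low in Ccnd1 (11.91, the others 12.97 to 13.09) and replicate 2 in Rrm2 (10.97, the others 11.5 to 11.6).

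In WT, ESC replicate 1 was high in Ccnd3 (12.81, the others 11.93 to 12.03) and Ccnf (10.66, the others 9.768 to 9.911) and low in Cdk2 (11.32, the others 11.62 to 11.66). Tyms was low in d2 WT replicate 2 (11.62, the others 11.82 to 11.86) and Mcm10 high in d3 WT replicate 2 (12.49, the others 12.37 to 12.38).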

How the results depend on the processing

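Of 31 calls of single members, 12 were kept under every alternative tried, among them Ccnd1 and Ccnd3 at d2 in WT, Ccnd1 and Ccnd2 at d3 in WT, and Ccnd1 (-1.28 to -0.97) and Ccnd3 (1.30 to 1.68) in d3 Smad2/3 DKO against WT. Over 559 refitted values 463 kept direction and call, 96 lost the call and 0 reversed. The authors' table and a filter of 12 arrays changed no count by over 1.5 times. Counts of members called that moved further were as follows, the cause not tested. Without background correction 1 was called in d3 WT against d2 WT and 1 in d2 Smad2/3 DKO. Median scaling gave 1 in d3 Smad3 KO, 0 in d3 Smad2/3 DKO against Smad2 KO and 0 in d3 against d2 Smad2/3 DKO, and lost Ccnf (0.38) in d3 Smad2/3 DKO against WT. No detection filter gave 7 in d3 WT against ESC, 1 in d3 Smad2/3 DKO against Smad2 KO and 1 in d3 against d2 Smad2/3 DKO. One probe per gene gave 1 in d2 Smad2/3 DKO. Fitting all 45 arrays together gave 7 in d3 WT against ESC, 1 in d3 Smad2/3 DKO against Smad2 KO, 3 and 4 in d2 and d3 Smad2/3 DKO against ESC, 1 in d3 against d2 Smad2/3 DKO, 2 in d3 Smad2 KO against ESC, and 1 each in d2 and d3 Smad3 KO against ESC. Without the doubted libraries, a setting chosen after seeing the data, the counts were 1 in d2 Smad2/3 DKO, 1 in d3 Smad3 KO, 6 and 11 in d2 and d3 Smad2 KO against ESC, and 2 and 5 in d2 and d3 Smad3 KO against ESC.

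With the replicate block, which in WT is the line, the 3 calls named with it in the report were lost and no other WT call changed. In the knockouts the number is shared without marking a clone (33 pairs with WT, correlations -0.218 to 0.298), and the replicate block there gave 1 in d3 Smad2/3 DKO against Smad2 KO and 0 in d3 against d2 Smad2/3 DKO. The clone block gave 1 in d3 against d2 Smad2/3 DKO and changed no other call of a knockout stage comparison. The study's threshold (unadjusted p under 0.05 and fold over 1.5) gave these counts of 33 members, with the share of all genes in brackets. In d3 against d2 WT there were 3 (14.6%), and in ESC Smad3 KO 1 (4.21%). At d2 there were 3 (10.2%), 1 (8.09%) and 1 (5.63%) in Smad2/3 DKO, Smad2 KO and Smad3 KO. At d3 there were 5 (22.3%) in Smad2/3 DKO, 2 (13.1%) in Smad3 KO and 4 (13.1%) in Smad2/3 DKO against Smad2 KO. The d3 minus ESC effect had 2 (14.9%), and d3 against d2 Smad2/3 DKO had 5 (13.6%). Against ESC, Smad2 KO had 2 (14.6%) at d2 and 3 (17.6%) at d3. Smad3 KO had 1 (14.7%) and 1 (20.7%) there. Leaving out 1 array at a time gave 4 to 7 in d2 WT and 7 to 10 in d3 WT against ESC, 0 to 2 in d3 against d2 WT, 0 to 1 in d2 Smad2/3 DKO, 2 to 3 in d3 Smad2/3 DKO, 0 to 1 in d3 Smad3 KO, 0 to 3 in d3 Smad2/3 DKO against Smad2 KO, 4 to 7 and 2 to 2 in d2 and d3 Smad2/3 DKO against ESC, 0 to 2 in d3 against d2 Smad2/3 DKO, 0 to 3 and 0 to 5 in d2 and d3 Smad2 KO against ESC, and 0 to 2 and 0 to 5 in d2 and d3 Smad3 KO against ESC. A block for the chip was not run, since the sources used here do not give it. Members near background (Ccna2, Plk1, Pcna and Ccnd2 on some arrays) are the least precise.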
